A study of Mus musculus with 50 samples.

Results

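Of 144465 merged ATAC-seq peaks, 23610 carried a group count of 1, that is, they were held as a consensus peak in a single one of 10 groups, and these single-group peaks are described here. They were chosen by measured values, namely the group count deposited beside each merged peak, so being high in 1 group is how they were picked and is not a result. The nuclei were neuronal (NeuN+, sorted by flow cytometry). They were taken from ventral hippocampi, and the mice were C57BL/6JRj males from Janvier Labs. The mice had been reared in 5 facilities, RF1 to RF5, and were sampled at 8 weeks (TP1) or at 14 weeks (TP2), with 5 libraries in each of the 10 groups. All 50 samples carried the same treatment label, hexane, given as the freezing condition, and no group had a genetic change. By the study's methods all pups descended from one breeding population whose pregnant dams had been allocated to the facilities. The TP2 mice had moved to a single test laboratory before sampling, and libraries were amplified in 1 batch per time point. Age, laboratory and amplification batch therefore cannot be told apart between TP1 and TP2. Tissue came from 1 side of the brain and held both excitatory and inhibitory neurones. Which group held each peak was found from the peak list of each library: a merged peak was given to a group where at least 3 of its 5 libraries had a peak overlapping it by at least 1 bp.

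ATAC-seq uses a transposase that inserts adapters into DNA not covered by nucleosomes, so a peak marks open chromatin such as a promoter, an enhancer or an insulator. Promoters of widely used genes tend to be open in every cell, while distal elements differ more between cell types and states. In the ventral hippocampus, which serves emotional behaviour and stress responses, a pool of neuronal nuclei mixes pyramidal cells, granule cells and several classes of interneurone. In such bulk samples fewer nuclei of a type and less open chromatin per nucleus cannot be told apart.

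The libraries held between 5111223 and 77396321 counts in merged peaks. Levels below are CPM, the count of a peak with each library scaled to the same total over all peaks. Differences are log2 fold changes that set an RF against the average of the remaining 4 at that TP, so the contrasts of a TP share libraries. Of 100 pairs of libraries within a group, 20 differed by less than the sampling noise, and values with such libraries summed into 1 sample are given beside the main counts. At TP1, 24 of 25 libraries were nearest to their own RF, the exception being the library labelled RF2 replicate 5 (r = 0.405 with its own RF and 0.463 with RF1, over 92368 peaks). At TP2 this held for 22 of 25. The libraries labelled RF1 replicate 5 (r = -0.422 with its own RF and 0.575 with RF5), RF1 replicate 3 (-0.034, and 0.228 with RF2) and RF2 replicate 5 (-0.235, and 0.543 with RF5) stood apart from their group, and the counts at TP2 are given with and without them. In the sample titles, both of these replicate 5 libraries carry running numbers that RF5 libraries carry at TP1. The main counts keep the labels as given, and the labels were not tested. Summed over the peaks within 2 kb of the ends of their genes, the 10 neuronal markers had 599 to 722 CPM in every library, the 8 astrocyte markers 101 to 136, the 8 microglia markers 58.4 to 81.6, the 8 oligodendrocyte markers 40 to 58.7 and the 6 endothelial markers 13 to 20.3. Cx3cr1, a receptor of microglia, Mog and Mag, proteins of myelin, and Flt1, Pecam1 and Tek, surface proteins of blood vessel cells, had no peak there.

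A few single-group peaks lay over the start of a gene whose name helps to read the data, and the 250 bases before the start are printed for 6 of them because their levels are followed below. They are Sst (somatostatin, the peptide that names a class of interneurones), Zfp36l1 (a protein that promotes mRNA decay), Selenop (a secreted selenium carrier), Odf3l1 (related to a protein of the sperm tail), Ubash3a (a regulator of T cell receptor signalling) and Frem3 (an extracellular matrix protein). The sequences are from RefSeq on GRCm38.p6, 5′ to 3′ on the strand of the gene. Capitals mark matches, on either strand, to TATAAA (the TATA box), TGACGTCA (the cAMP response element), TGANTCA (the AP-1 element), CCAAT (the CAAT box), GGGCGG (the GC box) and CACGTG (the E-box).
Sst, chr16:23890845-23891094, minus strand: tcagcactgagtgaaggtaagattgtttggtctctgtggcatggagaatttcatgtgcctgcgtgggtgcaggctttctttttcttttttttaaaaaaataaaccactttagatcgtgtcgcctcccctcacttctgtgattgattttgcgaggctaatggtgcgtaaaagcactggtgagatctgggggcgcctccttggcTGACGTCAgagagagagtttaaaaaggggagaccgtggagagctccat
Zfp36l1, chr12:80113014-80113263, minus strand: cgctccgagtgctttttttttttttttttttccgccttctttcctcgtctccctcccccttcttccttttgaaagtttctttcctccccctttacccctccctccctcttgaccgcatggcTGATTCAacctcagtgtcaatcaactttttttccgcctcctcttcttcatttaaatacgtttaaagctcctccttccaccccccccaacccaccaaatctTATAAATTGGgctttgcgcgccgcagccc
Selenop, chr15:3270727-3270976, plus strand: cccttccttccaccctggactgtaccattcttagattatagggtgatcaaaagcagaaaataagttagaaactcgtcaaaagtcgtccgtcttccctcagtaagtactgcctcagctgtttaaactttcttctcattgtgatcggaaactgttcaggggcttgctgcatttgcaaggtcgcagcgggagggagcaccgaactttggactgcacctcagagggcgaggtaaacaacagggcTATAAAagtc
Odf3l1, chr9:56851964-56852213, minus strand: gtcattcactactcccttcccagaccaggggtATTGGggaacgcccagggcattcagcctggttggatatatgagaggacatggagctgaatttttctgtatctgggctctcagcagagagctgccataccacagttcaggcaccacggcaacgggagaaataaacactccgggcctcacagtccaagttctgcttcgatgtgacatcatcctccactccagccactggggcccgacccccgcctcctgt
Ubash3a, chr17:31207816-31208065, plus strand: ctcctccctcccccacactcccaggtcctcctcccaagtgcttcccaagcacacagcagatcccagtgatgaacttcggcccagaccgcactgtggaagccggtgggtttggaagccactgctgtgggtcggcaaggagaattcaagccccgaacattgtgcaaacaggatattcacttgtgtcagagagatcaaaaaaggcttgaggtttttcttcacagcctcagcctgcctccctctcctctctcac
Frem3, chr8:80610789-80611038, plus strand: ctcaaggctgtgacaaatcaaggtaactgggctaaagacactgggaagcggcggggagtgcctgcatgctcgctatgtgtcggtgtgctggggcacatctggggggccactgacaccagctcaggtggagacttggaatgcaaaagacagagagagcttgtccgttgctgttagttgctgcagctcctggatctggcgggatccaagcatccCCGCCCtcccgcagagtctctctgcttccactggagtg
In the Zfp36l1 window TATAAA shared 1 base with a reverse CCAAT, and the Ubash3a window held none of the 6 motifs.

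Such windows were rare among the single-group peaks. Only 140 windows, of 135 genes, were covered by at least 125 bases of a single-group peak, against 12111 windows covered by a peak held in all 10 groups. The windows under single-group peaks had a median GC content of 57.2% and an observed to expected CpG ratio of 0.385, against 61.2% and 0.75 under the peaks of all 10 groups and 55.6% and 0.53 over all 21263 windows. The 1052 windows under peaks of 2 to 9 groups lay near the single-group values, with 57.6% and 0.439. TGANTCA was found in 10.7% of the windows under single-group peaks and in 6.13% of all windows, TATAAA in 7.86% and 11.6%, CCAAT in 35.0% and 35.4%, GGGCGG in 42.1% and 42.6%, and CACGTG in 5.0% and 6.63%. TGACGTCA was found in 1 window under a single-group peak, that of Sst (0.714%, against 1.92% of all windows). Under the peaks of 2 to 9 groups the shares were 7.7% for TGANTCA, 7.03% for TATAAA and 30.1% for CCAAT. There GGGCGG had 45.1%, CACGTG 6.56% and TGACGTCA 1.24%. These matches are descriptions of letters and no test of binding was made.

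By the overlap of library peaks, 19899 of the 23610 peaks (84.3%) were given to exactly 1 group, 10990 to a TP1 group and 8909 to a TP2 group. The other 3711 overlapped peaks of at least 3 libraries in more than 1 group, 2846 of them in 2 groups, and are left out of the group counts. A stricter reading, in which the peaks of at least 3 libraries of a group share a base, equalled the deposited group count for 141790 of all merged peaks (98.1%). It gave 23590 of the single-group peaks to 1 group, and 19884 of the 19899 to the same group as the overlap did. At TP1 the numbers were 3000 in RF1, 3450 in RF2, 1292 in RF3, 962 in RF4 and 2286 in RF5. At TP2 they were 1044 in RF1, 964 in RF2, 2325 in RF3, 1008 in RF4 and 3568 in RF5. The order of the RFs therefore differed between the time points, RF1 and RF2 holding the most at TP1 and RF5 and RF3 at TP2.

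**Figure D1:**
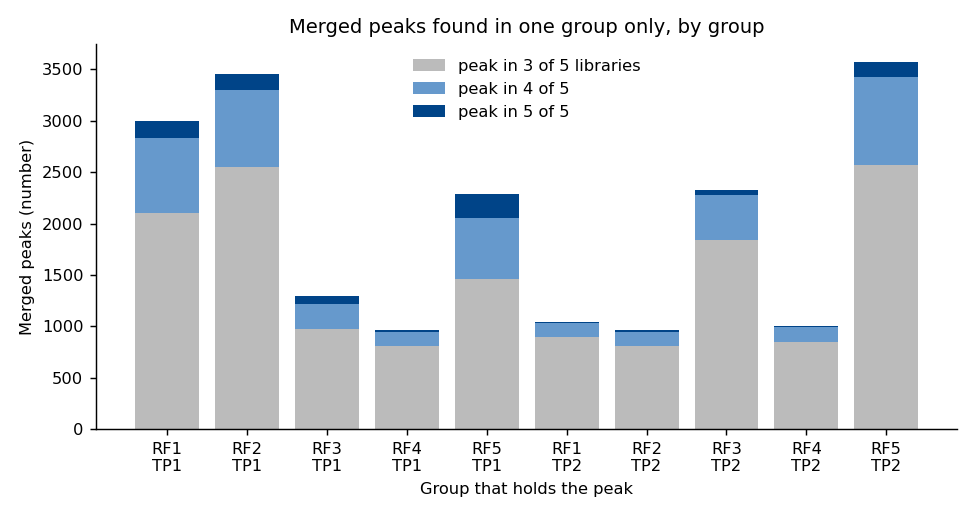
Number of single-group peaks (vertical axis) given to each RF (horizontal axis) at TP1 and TP2. The counts ran from 962 in RF4 at TP1 to 3568 in RF5 at TP2.

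Most of these peaks only just reached the number of libraries that the definition asks for. Within their own group 14866 were held by 3 libraries, 4170 by 4 and 863 by 5. Counted over all 50 libraries they had a peak in a median of 9 libraries, ranging from 3 to 22, and a median of 6 of these lay outside the group. Only 474 (2.38%) had no library peak outside their group. The own group had the highest mean level of all 10 groups for 9589 peaks (48.2%). Just inside the threshold, 10492 peaks were held by 3 libraries of their own group and by 2 of the next group. Their median level was 1.48 CPM in the own group and 1.3 CPM in that next group. Just outside it lay 3468 merged peaks with a deposited group count of 2, which are not single-group peaks. They were held by 3 libraries in each of 2 groups, with median levels of 1.68 CPM and 1.8 CPM. The 863 peaks held by all 5 libraries had 1.87 CPM in their own group against 1.32 CPM in the group with the next most libraries.

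The strictest calls were 17 peaks with a call in all 5 libraries of their group and in none of the other 45. Their median level was 1.98 CPM in the own group. In a single other group it was 0.769 CPM, with a median ratio of 2.53. As no other group had a call, that group was the first in order. It was RF1 at TP1, or RF2 at TP1 for the peaks of RF1. At TP1, 12 belonged to RF5, near Cd84, C130074G19Rik, Pmepa1, Fnip2, Rspo1, Rbpj, Cdh5, Cdh13, Gstt1, F13a1, Cbx6 and Jcad. RF1 at TP1 had 3, near Snapc3, Reep3 and Shbg, RF3 at TP1 had the peak near Prdm16, and RF3 at TP2 the peak near Itprid2. No peak of RF2 or RF4 was of this kind. In 12 of the 17 every library of the own group was above all other libraries, and in 5, near Fnip2, Snapc3, Reep3, Shbg and Itprid2, the groups overlapped. Such separation follows in part from picking the 17 by their calls, so nothing is read from it. Among all peaks given to RF5 at TP1, every own library was above the other RFs of that TP for 336 of 2286. For RF1 and RF3 at TP1 it was 71 of 3000 and 109 of 1292, and for RF3 at TP2 56 of 2325. The share over all merged peaks was not counted. The Shbg peak had 1.15 to 1.46 CPM in RF1 against 0.445 to 1.9 with a median of 1.16 in the other RFs at TP1.

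Single-group peaks were narrow and weak. Their median width was 599 bp (interquartile range 372 to 953 bp), against 998 bp for peaks held in 2 to 5 groups, 1593 bp in 6 to 9 and 2114 bp in all 10. Their median count per library was 46.64, against 328.9 in peaks of all 10 groups, and per kilobase of width 2.145 CPM against 4.025 CPM. Peaks of 2 to 5 groups had 79.84 counts and 2.223 CPM per kilobase, so the level per kilobase was near theirs. They made up 16.3% of the peaks and took 3.61% of the counts, while peaks of all 10 groups took 73%. They were narrower at TP1 (group medians of 339 to 463.5 bp) than at TP2 (770 to 881 bp). Library totals differed too, with group medians of 40567752 to 52949870 counts at TP1 and 21653539 to 33707384 at TP2. The part of depth in the widths was not tested.

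They also lay away from gene ends, as did the other peaks not held in all 10 groups. Of the single-group peaks 7.11% lay within 2 kb of either end of a gene, 60.2% inside a gene body and 32.7% outside genes, whereas 26.7% of the peaks of all 10 groups lay near an end, 42.9% in a body and 30.4% outside. Only 168 (0.738%) covered the start of a protein-coding gene, against 18.3% of the peaks of all 10 groups. Of the peaks held in 2 to 5 groups, 7.63% lay near an end and 1.22% covered a start. In 6 to 9 groups it was 9.19% and 2.03%, so this trait was not particular to single-group peaks. The share near gene ends was highest for the TP1 peaks of RF3 (11%) and the TP2 peaks of RF4 (10.9%) and lowest in RF1 at TP1 (4.53%), where 50.4% lay outside genes.

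The shallowest libraries held the smallest shares of the single-group peaks of their group. The library labelled RF1 replicate 3 at TP2, with 5111223 counts, held 32.7% of the peaks of its group, and RF2 replicate 3 at TP2, with 7287029 counts, held 39.1%. Above them the share did not simply follow depth: RF1 replicate 3 at TP1, with 52949870 counts, held 43.4%, and the highest share was 84.8%, in RF4 replicate 3 at TP1. The part of depth in the group counts was not tested.

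**Figure D2:**
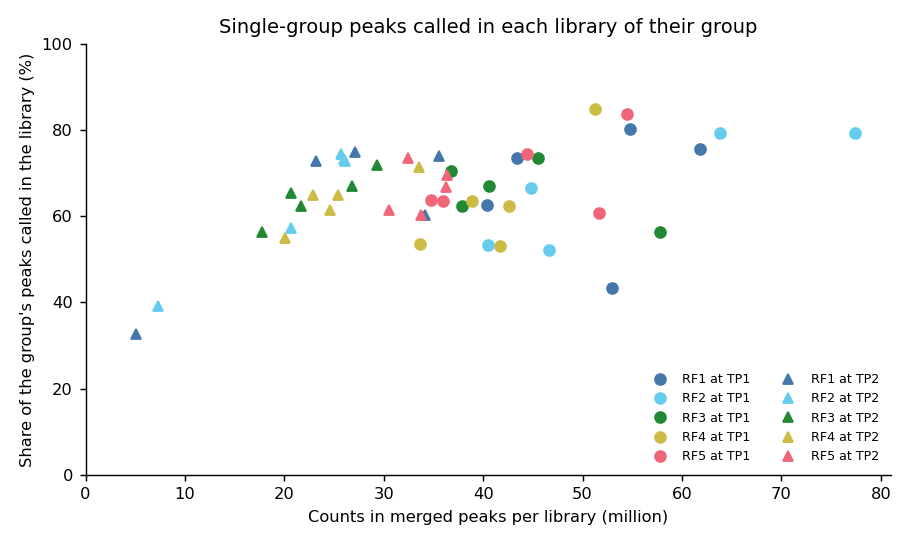
Share of the single-group peaks of its own group that each library held (vertical axis, percent) against its total count in peaks (horizontal axis, 1e6 counts, linear scale), with a point per library coloured by RF and shaped by TP. The shares ran from 32.7% in the library with 5111223 counts to 84.8%.

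Dependence on the RF was tested within each TP over all peaks with edgeR's quasi-likelihood test. At TP1 the level of 36.1% of the single-group peaks (8519 of 23605 tested) depended on the RF at an adjusted p under 0.01 (Benjamini-Hochberg), while 59.1% of all peaks did. At TP2 it was 10.4% (2451 of 23599) against 30.8% of all peaks. Since the members were chosen on these measurements and are weaker than the rest, the shares are a description. Without the libraries that stood apart, 22.6% of the single-group peaks at TP2 and 49.5% of all peaks depended on the RF. With libraries within sampling noise summed, these shares were 3.06% and 14.2% at TP2, and 28.6% and 48.7% at TP1. Leaving out the libraries numbered 1, 2 or 4 at TP2 lowered the count of single-group peaks from 2451 to 816, 703 and 885. The share of all peaks fell as well, from 30.8% to 17.4%, 16.1% and 17.5%. Without replicate 3 or 5 the count was 1819 or 3398, and the share of all peaks 26.2% or 38.9%.

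At the TP and in the RF that chose them, the median log2 fold changes of the peaks of RF1 to RF5 were 0.50, 0.20, 0.44, 0.36 and 0.47 at TP1, and 0.32, 0.26, 0.37, 0.31 and 0.19 at TP2. A log2 fold change of at least 0.5 with an adjusted p under 0.01 counts as a call. At TP1 1449 peaks of RF1 (48.3%) were called higher, where 9.0% of all peaks were. The same held for 58 peaks of RF2 (1.68%, all peaks 0.168%), 490 of RF3 (37.9%, all peaks 1.23%), 174 of RF4 (18.1%, all peaks 0.598%) and 1027 of RF5 (44.9%, all peaks 2.28%). At TP2 the numbers were 112 in RF1 (10.7%, all peaks 1.14%), 6 in RF2 (0.622%, all peaks 0.126%), 463 in RF3 (19.9%, all peaks 2.69%), 72 in RF4 (7.14%, all peaks 0.541%) and 75 in RF5 (2.1%, all peaks 0.217%). Without the libraries that stood apart the TP2 numbers were 292, 58, 668, 67 and 308 for RF1 to RF5, and with libraries within sampling noise summed they were 87, 0, 205, 10 and 0. Summing gave 1401, 31, 327, 124 and 968 at TP1. The peaks were picked for being called in that group, so nothing is read from these shares. Only 3 peaks were called lower in the group that held them, all of RF1 at TP1, where 5.96% of all peaks were called lower. Those near Sipa1l3 and Osbpl5, on chromosome 7, each had a log2 fold change of -0.57.

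The time point that did not choose a peak gives other mice of the same facility, which are not unrelated: by the study's methods each mouse killed at TP1 had a littermate of the same cage killed at TP2. A peak held in the same RF at both time points is by definition not among the single-group peaks, which bears on what can be seen there. At that other time point few single-group peaks were called. Of 10979 TP1 peaks tested at TP2, 40 (0.364%) were higher in their RF and 85 (0.774%) lower, and of 8905 TP2 peaks tested at TP1, 109 (1.22%) were higher and 292 (3.28%) lower. The background differs by RF, so each group is read against its own.

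In RF4 the single-group peaks leaned the same way at both time points. Of its TP2 peaks, 45 (4.46%) were called higher in RF4 at TP1 and 0 lower, against 0.598% and 1.88% of all peaks. The median log2 fold change was 0.20 and 85.7% lay above 0, while peaks of other kinds in the same 1 Mb regions had a median of 0.035. DESeq2 called 47 higher and 0 lower, and at an unadjusted p under 0.05 edgeR's test had 363 higher and 8 lower. Of the TP1 peaks of RF4, 12 (1.25%) were called higher at TP2 and 1 (0.104%) lower, against 0.541% and 1.32% of all peaks, with a median of 0.17 and 77% above 0. These TP1 peaks had 0 calls in either direction under the regional offset described below and 0 with libraries summed, the medians then being 0.10 and 0.16, while the TP2 peaks had 30 higher and 0 lower when summed.

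The peaks of RF3 and the TP2 peaks of RF1 leaned the other way. Of the TP2 peaks of RF1, 152 (14.6%) were called lower in RF1 at TP1 and 15 (1.44%) higher, against 5.96% and 9.0% of all peaks, with a median log2 fold change of -0.20. Of these 1044 peaks, 338 were held by all 3 of the libraries left when those labelled RF1 replicates 3 and 5 are set aside, and among them 59 (17.5%) were lower and 7 higher, with a median of -0.25. Of the TP1 peaks of RF1, 27 (0.9%) were lower and 22 (0.733%) higher at TP2, against 1.22% and 1.14% of all peaks, so both shares lay below the background. Their median was -0.12, as was that of peaks of other kinds in the same 1 Mb regions. In RF3, 52 TP2 peaks (2.24%) were lower and 1 (0.043%) higher at TP1, against 0.761% and 1.23% of all peaks, and 45 TP1 peaks (3.48%) were lower and 0 higher at TP2, against 0.888% and 2.69%. For that 0, edgeR's test gave 16 higher at an unadjusted p under 0.05 and DESeq2 called 1. The median log2 fold changes in RF3 were -0.10 at TP1 and -0.20 at TP2. With libraries summed the RF3 calls fell to 7 lower and 0 higher at either time point, while those of the RF1 TP2 peaks were 151 lower and 13 higher.

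In RF5 and RF2 the medians lay nearer to 0. Of the TP2 peaks of RF5, 88 (2.47%) were lower and 48 (1.35%) higher at TP1, where 3.00% and 2.28% of all peaks were, with a median of -0.034. Of its TP1 peaks, 12 (0.527%) were lower and 6 (0.264%) higher at TP2, against 0.688% and 0.217%. In RF2, edgeR's test called 0 in either direction at either time point, where 0.0720% of all peaks were lower and 0.168% higher at TP1 and 0.0464% lower and 0.126% higher at TP2. At an unadjusted p under 0.05 there were 145 higher and 110 lower at TP2 and 23 higher and 69 lower at TP1, and DESeq2 called 1 higher at TP2 and no other. At TP2, 385 of the 964 RF2 peaks were held by at least 3 of the 4 libraries left without replicate 5, with a median of -0.026 at TP1.

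**Figure D3:**
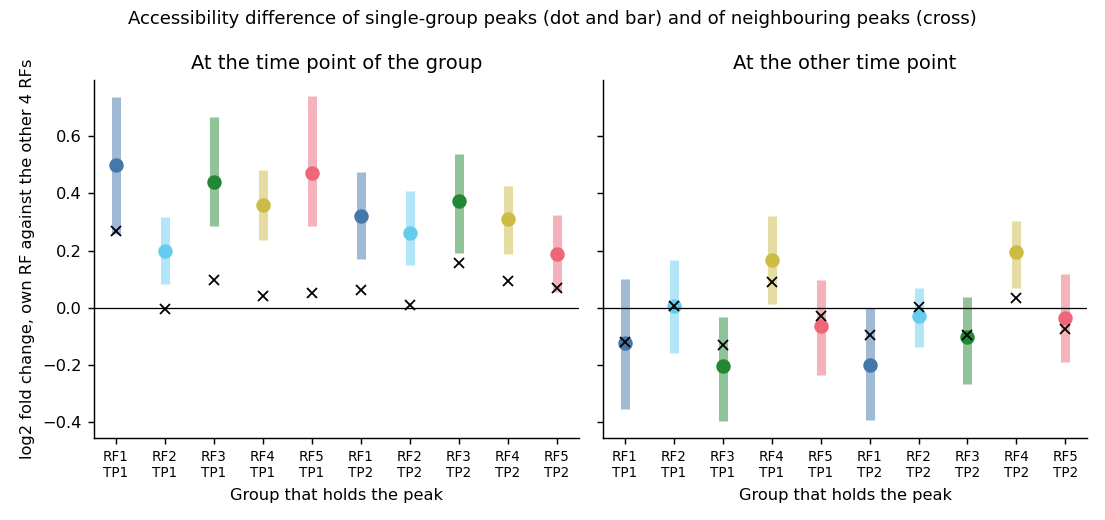
Median (dot) and interquartile range (bar) of the log2 fold change (vertical axis, own RF against the other 4 RFs) of the single-group peaks of each group (horizontal axis), at the TP that chose them (left) and at the other TP (right), with the median of the neighbouring peaks of the same 1 Mb regions as a cross. At the other TP the medians of both RF4 groups, 0.17 and 0.20, lie above 0 and those of both RF3 groups, -0.20 and -0.10, below it.

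The neighbouring peaks differed as well, and the split of calls depended on the scale. Other peaks of the same 1 Mb regions had medians of -0.094 and -0.12 in RF1 and -0.096 and -0.13 in RF3, at TP1 and TP2. With an offset that centres each 1 Mb region, the TP2 peaks tested at TP1 were called higher in 183 cases and lower in 137, in place of 109 and 292, and the TP1 peaks at TP2 in 21 and 8, in place of 40 and 85. Under this offset the RF4 TP2 peaks still had 94 higher and 0 lower, with a median of 0.26 where that of all peaks was 0.11, and the RF1 TP2 peaks had 1 higher and 81 lower, with a median of -0.21 where that of all peaks was -0.086. The RF3 calls dropped to 1 higher and 14 lower at TP1 and to 0 and 0 at TP2, and the TP1 peaks of RF1 turned to 20 higher and 4 lower. For RF5 the TP2 peaks had 87 higher and 42 lower, so the direction turned there too. With libraries within sampling noise summed, the TP1 peaks had 17 higher and 16 lower at TP2, and the TP2 peaks 86 higher and 206 lower at TP1. Without the libraries that stood apart they had 128 and 401, of which RF1 gave 77 and 241 and RF3 gave 1 and 105. Leaving out the 5 libraries that share a replicate number moved these TP2 counts as well, to 11 higher and 16 lower without replicate 1, 4 and 20 without replicate 2, 8 and 16 without replicate 4 and 87 and 245 without replicate 5.

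The groups drew on different chromosomes. Chromosome 7 held 5.33% of all merged peaks but 10.1%, 9.98% and 9.27% of the single-group peaks of RF3, RF4 and RF5 at TP1 and 10.3% of those of RF4 at TP2, and only 1.73% of those of RF1 at TP1 and 1.46% of RF3 at TP2. Chromosome 11, another gene-rich chromosome, held 3.1% of the RF1 peaks and 10.1% of the RF3 peaks at TP1 (all peaks 6.25%). Chromosome 3 went the other way, with 8.43% in RF1 at TP1 and 2.68% in RF4 at TP2 (all peaks 5.55%). The X chromosome held 144 of the RF1 TP1 peaks (4.8%), and between 0.262% and 2.19% in the other groups (all peaks 1.6%). The median number of genes per Mb around the peaks was 5 in RF1 at TP1 and in RF3 and RF5 at TP2, and 12 in RF3 at TP1. Peaks of 1 chromosome are not independent of each other and no test was made. Single-group peaks made up 15.5% to 17.5% of the peaks of every chromosome other than Y, where 2 of 10 were.

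**Figure D4:**
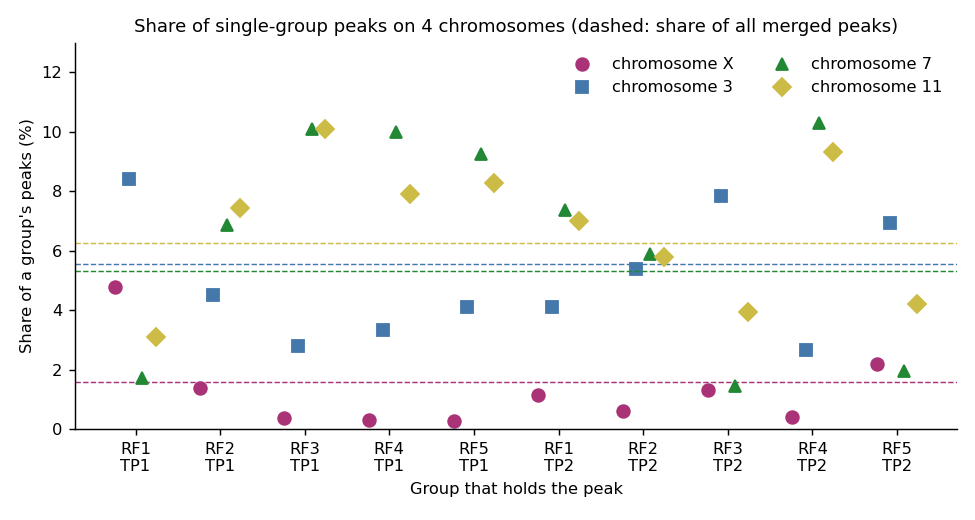
Share of the single-group peaks (vertical axis, percent) of each of the 10 groups (horizontal axis) that lay on chromosomes X, 3, 7 and 11 (symbols), with the share of all merged peaks on each as a dashed line. On chromosome 7 the groups run from 1.46% to 10.3%, on either side of the 5.33% of all peaks.

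Prdm16 encodes a transcription factor of neural stem cells and brown fat. Its peak (chr4:154574928-154575494) was called in all 5 RF3 libraries at TP1 and nowhere else, and there it had 1.97, 2.09, 2.56, 2.23 and 1.66 CPM, replicates 1 to 5. The 20 libraries of the other RFs lay between 0.486 and 1.19 CPM, with a median of 0.804, so the RF3 libraries were all higher and the groups did not overlap (log2 fold change 1.47, SE 0.14). As the peak was picked by its calls in these libraries, that separation is a description and not a result. At TP2 the RF3 libraries had 0.823, 0.477, 0.448, 0.6 and 0.394 CPM and the others 0.312 to 1.66, with a median of 0.583. The groups then overlapped, and the log2 fold change was -0.46 (SE 0.27, adjusted p = 0.21, edgeR's quasi-likelihood test).

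The peak near Cdh5, the cadherin of blood vessel cells, lay outside genes, 32720 bp from the nearest end of that gene (chr8:104068185-104068893), and belonged to RF5 at TP1. Its 5 libraries had 3.29, 2.7, 3.6, 3.26 and 3.0 CPM, and the others 0.643 to 1.4 CPM with a median of 0.972. Every RF5 library was above every other (log2 fold change 1.68, SE 0.11). At TP2 the RF5 libraries had 1.17, 1.54, 1.04, 1.49 and 0.721 CPM, inside or just above the others at 0 to 1.4, and the log2 fold change was 0.20 (SE 0.20, adjusted p = 0.57, edgeR's quasi-likelihood test). Peaks near F13a1, a subunit of a clotting factor, and Cd84, a receptor of immune cells, had the same form at TP1. For F13a1 the RF5 libraries had 2.59, 2.31, 2.3, 1.87 and 2.89 CPM and the others 0.469 to 1.15, and for Cd84 1.55, 1.38, 1.27, 1.26 and 1.95 CPM and the others 0.208 to 0.6. In neither did the groups overlap. These peaks and that near Cdh5 were picked by their calls in the same libraries, so the separation at TP1 is a description. None of the 19 peaks of the endothelial list was a single-group peak, and 1 of the 16 of the microglia list was. In RF5 at TP1 the summed endothelial level was 13.4 to 15.4 CPM and the summed microglia level 66.5 to 73.1 CPM, inside the ranges of all libraries, and their part in these peaks was not tested.

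The Sst peak (chr16:23890708-23891096) was called in all 5 RF1 libraries at TP1 and in at most 2 of any other group. The RF1 libraries had 1.46, 1.23, 1.04, 1.41 and 1.54 CPM and the others 0.564 to 1.58 with a median of 0.985. They lay in the upper part of the range and the groups overlapped (log2 fold change 0.52, SE 0.14). At TP2 the RF1 libraries had 0.535, 0.663, 0.587, 0.301 and 1.11 CPM and the others 0.325 to 2.06, with a log2 fold change of -0.43 (SE 0.25, adjusted p = 0.23, edgeR's quasi-likelihood test). All but the library labelled RF1 replicate 5 lay below the others' median of 0.895.

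Zfp36l1 had a peak over its start (chr12:80112905-80113408) that 4 of 5 RF3 libraries held at TP1. The RF3 libraries had 3.17, 3.32, 3.01, 3.4 and 3.14 CPM, all above the others at 0.889 to 2.59. At TP2 the RF3 libraries were low instead, with 0.726, 0.954, 1.01, 0.831 and 1.29 CPM against 0.679 to 4.53 with a median of 1.71. The log2 fold change turned from 1.00 (SE 0.11) to -0.81 (SE 0.22, adjusted p = 0.0028, edgeR's quasi-likelihood test). This call was lost when replicate 1, 2, 3 or 4 was left out, with noise-level libraries summed and under the regional offset.

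Apc2, which encodes a relative of the tumour suppressor APC, showed the same turn in a 447 bp peak (chr10:80302416-80302862). The RF3 libraries had 6.4, 6.49, 6.04, 7.06 and 6.73 CPM at TP1, above the others at 1.99 to 4.51 CPM. At TP2 they had 1.94, 2.08, 2.05, 2.54 and 1.52 CPM, in the lower part of the others' range of 1.67 to 4.7. The log2 fold changes were 0.98 (SE 0.084) and -0.67 (SE 0.14, adjusted p = 0.00011, edgeR's quasi-likelihood test). The TP2 call was lost with libraries summed and under the regional offset. Nrxn2, a presynaptic adhesion molecule, also had a TP1 peak of RF3 that was lower at TP2 (-0.68, SE 0.19, adjusted p = 0.0051, edgeR's quasi-likelihood test), a call lost under the same settings and without replicate 1, 2 or 3.

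Of the 135 start-covering peaks given to a group, 1 was called higher in its RF at the other time point, that of Selenop. Over all single-group peaks tested there, 149 of 19884 were called higher. The Selenop peak (chr15:3270703-3271012) was held by 3 RF1 libraries at TP1, where the 5 had 0.859, 0.631, 0.907, 0.62 and 1.1 CPM against 0.222 to 0.937 with a median of 0.47. At TP2 they had 0.732, 0.774, 1.17, 0.732 and 0.498 CPM against 0.185 to 0.822 with a median of 0.367. The 1.17 and 0.498 are the libraries labelled RF1 replicates 3 and 5, which stood apart, and replicate 3 had only 5111223 counts over all peaks. At both time points the RF1 libraries were high and overlapped the highest of the others. The TP2 log2 fold change was 1.00 (SE 0.26, adjusted p = 0.0049, edgeR's quasi-likelihood test), and the call was lost without replicate 1, 2, 3 or 4, with libraries summed and under the regional offset.

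The other 6 calls over starts were lower at the other time point, where 377 of all 19884 single-group peaks tested were. Ubash3a was an RF1 peak at TP2 (chr17:31207588-31208468), held by replicates 1, 2 and 4. There the RF1 libraries had 2.14, 2.51, 0.783, 2.8 and 0.996 CPM and the others 0.549 to 1.67 with a median of 1.22, so the low pair were the libraries labelled RF1 replicates 3 and 5, which stood apart. At TP1 the RF1 libraries had 0.639, 1.04, 1, 0.669 and 0.667 CPM and the others 0.737 to 2.22 with a median of 1.56. They lay at the bottom of the range with some overlap (log2 fold change -0.81, SE 0.15, adjusted p = 5.6e-06, edgeR's quasi-likelihood test), and the call held under every alternative run.

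Odf3l1 was an RF1 peak at TP2 too (chr9:56851962-56853480), with 2.7, 3.32, 2.74, 3.7 and 2.05 CPM against 1.38 to 3.99. At TP1 the RF1 libraries had 2.06, 2.88, 2.32, 2.18 and 1.89 CPM against 2.54 to 4.51, and all but replicate 2 were below every other library. The log2 fold change was -0.59 (SE 0.099, adjusted p = 1.5e-06, edgeR's quasi-likelihood test). The peak over the start of 1700122O11Rik behaved alike (-0.86, SE 0.22, adjusted p = 0.00075, edgeR's quasi-likelihood test). Both calls held under every alternative run. Frem3 was an RF3 peak at TP2 (chr8:80610774-80611715), where RF3 had 1.69, 2.45, 2.39, 1.85 and 1.97 CPM. At TP1 the RF3 libraries had 1.21, 1.3, 1.04, 0.978 and 0.976 CPM and the others 0.976 to 2.56 with a median of 1.63 (-0.58, SE 0.15, adjusted p = 0.0035, edgeR's quasi-likelihood test), and this call was lost without replicate 1, 4 or 5 and with libraries summed.

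**Figure D5:**
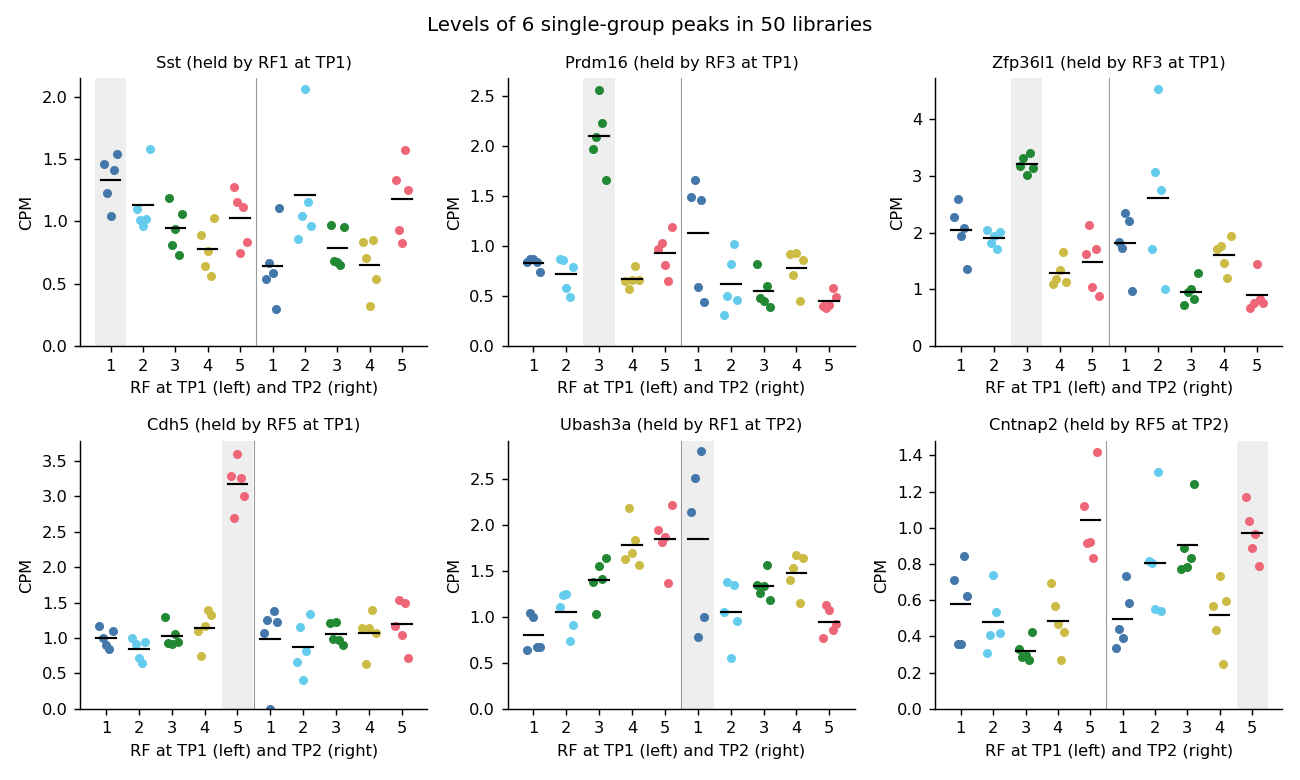
Level in CPM (vertical axis) of 6 single-group peaks, near Sst, Prdm16, Zfp36l1, Cdh5, Ubash3a and Cntnap2, in each library (dots) of the 10 groups (horizontal axis), with the group mean as a line and the group that held the peak shaded. The Cdh5 peak stands clear of all other groups, and the Zfp36l1 peak is high in RF3 at TP1 and low in RF3 at TP2. The Prdm16 peak stands clear of the other RFs at TP1 but only just clear of RF1 at TP2 (1.66 CPM in both after rounding).

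Among 90 RF5 TP2 peaks in the synaptic adhesion list 1 was called higher and 2 lower at TP1, where 1.35% and 2.47% of all RF5 TP2 peaks were. Cntnap2, a neurexin relative that clusters potassium channels along axons, had a 369 bp RF5 peak at TP2 (chr6:45323417-45323785) with 1.17, 1.04, 0.89, 0.965 and 0.787 CPM against 0.25 to 1.31. At TP1 the RF5 libraries had 1.12, 0.918, 0.922, 0.832 and 1.42 CPM, and only the lowest of them fell below the highest of the others, which lay between 0.267 and 0.843 CPM. The log2 fold change at TP1 was 1.21 (SE 0.19, adjusted p = 8.8e-07, edgeR's quasi-likelihood test) and the call held under every alternative run. A second RF5 peak in Cntnap2 (chr6:46065238-46065859, 622 bp) was lower in RF5 at TP1 (-0.69, SE 0.22, adjusted p = 0.0093, edgeR's quasi-likelihood test), so the peaks of 1 gene differed in direction. That second call was lost without the replicate block, without replicate 1, 2, 4 or 5, with libraries summed and under the regional offset.

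Fign, which encodes a microtubule-severing enzyme, had an RF5 peak at TP2 (chr2:64496243-64496665) with 0.987, 0.934, 0.979, 1.13 and 1.08 CPM. At TP1 the RF5 libraries had 0.426, 0.385, 0.288, 0.135 and 0.195 CPM against 0.376 to 1.19 with a median of 0.712. They were lowest or nearly so, and the log2 fold change was -1.24 (SE 0.24, adjusted p = 3.6e-05, edgeR's quasi-likelihood test), a call that held under every alternative run.

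Of the 34 RF3 TP2 peaks in the axon guidance list 2 were called lower in RF3 at TP1, and 1 of the 46 in the synaptic adhesion list, where 2.24% of all RF3 TP2 peaks were. For Robo1, the receptor of the Slit repellents, the RF3 libraries had 2.32, 2.62, 3.54, 2.59 and 3.72 CPM at TP2 and 1.38, 0.813, 1.08, 1.2 and 1.13 CPM at TP1 (TP1 log2 fold change -0.58, SE 0.15, adjusted p = 0.0022, edgeR's quasi-likelihood test). For Cdh11, a cadherin outside the lists' calls and named as the most lowered of the RF3 TP2 peaks, the RF3 libraries had 0.484, 0.044, 0.173, 0.435 and 0.211 CPM at TP1 (-1.12, SE 0.25, adjusted p = 0.00056, edgeR's quasi-likelihood test). By edgeR's quasi-likelihood test Dcc, the netrin receptor (-0.63, SE 0.17, adjusted p = 0.0042), and Cadm2, an adhesion molecule (-0.78, SE 0.20, adjusted p = 0.0027), were also lower. The Robo1 call was lost without replicate 2, with libraries summed and under the regional offset, and the Cdh11 call without replicate 2 and with libraries summed. Those of Dcc and Cadm2 were lost in the latter setting, under the regional offset and without replicate 2, 4 or 5 for Dcc and 3 or 4 for Cadm2.

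In RF4 the peaks that were called at the other time point were mostly higher. Xylt1, a xylosyltransferase that starts the sugar chains of proteoglycans, had an RF4 peak at TP2 with 0.788, 0.354, 0.853, 0.749 and 0.745 CPM, which are only 18, 9, 21, 15 and 25 counts. At TP1 the RF4 libraries had 0.72, 0.772, 0.625, 0.356 and 1.32 CPM against 0.174 to 0.63 with a median of 0.424, 3 of the 5 being above all others (0.82, SE 0.21, adjusted p = 0.002, edgeR's quasi-likelihood test). Leaving out replicate 5 ended that call. Gapvd1, a factor of endocytosis, had an RF4 peak at TP1, and at TP2 the RF4 libraries had 1.44, 1.42, 1.3, 1.15 and 1.25 CPM against 0.231 to 1.17 with a median of 0.782. All but 1 of them were above every other library (0.82, SE 0.20, adjusted p = 0.0019, edgeR's quasi-likelihood test). The Gapvd1 call was lost with libraries summed and under the regional offset.

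RF1 at TP2 also had peaks that moved at TP1 in either direction. Aga, a lysosomal enzyme that cleaves sugar from asparagine, was higher in RF1 at TP1, with 1.11, 0.971, 0.85, 1.04 and 1.52 CPM against 0.286 to 0.888, only 1 of them reaching the others' range (1.02, SE 0.16, adjusted p = 3.7e-07, edgeR's quasi-likelihood test). Slc37a1, a sugar phosphate transporter, was lower, with 0.859, 0.745, 0.604, 0.397 and 0.414 CPM against 0.674 to 1.99, with 3 of the 5 below every other library (-0.88, SE 0.17, adjusted p = 1.5e-05, edgeR's quasi-likelihood test). The Slc37a1 call held under every alternative run and that of Aga was lost under the regional offset only. Iqck, held by replicates 1, 2 and 4 of RF1 at TP2, had 3.27, 3.13, 0.783, 2.89 and 0.557 CPM there, the low pair again being the libraries labelled RF1 replicates 3 and 5.

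Some of the strongest single-group peaks by level were hardly higher, or were lower, in the group that held them, unlike the Apc2 peak, the strongest of RF3 at TP1. The RF1 TP1 peak in Rbfox3, the gene of the NeuN protein used for sorting, was called in all 5 RF1 libraries (chr11:118490282-118491104), yet had 6.47, 8.01, 8.63, 6.37 and 6.51 CPM there against 6.69 to 10.3 with a median of 8.18, so it was called a peak where its level was not the higher (log2 fold change -0.14). A 2727 bp peak in Grin2b, an NMDA receptor subunit, held by replicates 3, 4 and 5 of RF1 at TP2, lay inside the others' range of 7.54 to 11.3 CPM. The peak in Nr3c1, the glucocorticoid receptor gene, of 397 bp, was an RF5 peak at TP1 with 1.12, 1.67, 1.27, 1.44 and 1.06 CPM against 0.198 to 1.29 with a median of 0.698 (log2 fold change 0.94). Another RF5 TP1 peak at this gene, of 332 bp, had 0.778 to 1.33 CPM in RF5 against a median of 1.02, with a log2 fold change of -0.004.

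Both single-group peaks on the Y chromosome, near LOC665918 and Gm20812, belonged to RF5 at TP1. For Gm20812 the RF5 libraries had 2.21, 1.32, 1.61, 2.83 and 2.95 CPM against 0.0987 to 0.57 CPM, without overlap. At TP2 the log2 fold change in RF5 was -1.38 for Gm20812 (adjusted p = 0.1) and -1.45 (SE 0.31, adjusted p = 0.001) for LOC665918, by edgeR's quasi-likelihood test. Many genes of this chromosome come in near-identical copies, so where the reads of such genes belong is uncertain. The LOC665918 call was lost without replicate 1, 2 or 4 and with libraries summed.

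By gene list, single-group peaks made up 21.9% of the peaks of synaptic adhesion genes (387 of 1769), 20.6% of postsynaptic scaffold genes (204 of 988), 19.7% of axon guidance genes (216 of 1097) and 18.9% of glutamate receptor genes (172 of 910), where the share over all peaks was 16.3%. In the neuronal marker list it was 15.5% (46 of 297) and in the potassium channel list 17.4% (130 of 746). The median log2 fold change at the other time point over all 19884 tested was -0.045, with 149 higher and 377 lower. In the synaptic adhesion list, of 313 peaks given to a group, 1 was higher and 4 lower at the other time point, with a median of -0.062. In the axon guidance list, of 180, 0 were higher and 2 lower, and in the glutamate receptor list, of 139, 0 and 1. Of 161 in the postsynaptic scaffold list edgeR's test called 0 in either direction. Among the smaller lists, the immediate early genes, which neuronal activity switches on, had 9 single-group peaks of 70, the glucocorticoid list 37 of 164, the clock genes 26 of 165, the interneurone list 24 of 114, the pyramidal list 24 of 171, and the dentate list 27 of 118. Of the lists of other cells, oligodendrocyte genes had 3 of 32 and astrocyte genes 6 of 33.

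The genes with the most single-group peaks were long, the 15 highest running from 567.3 to 2271 kb, and they held many peaks of every kind. Dlg2, a postsynaptic scaffold of 1973 kb, held 56 among its 231 peaks (24.2%), Tenm2, an adhesion molecule, 48 of 200 (24%), and Csmd1, a complement-regulating protein, 45 of 186 (24.2%). The share was 38% in Epha6, an ephrin receptor (35 of 92), 17.9% in Dab1, an adaptor of reelin signalling (31 of 173), and 14.5% in Rbfox1, a splicing regulator (33 of 227), below the 16.3% of all peaks. No test of these counts was made.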

How the data were processed

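Per the methods of the study, nuclei were prepared and sorted in 5 batches per TP, each with 1 sample per facility, and libraries were amplified in 1 batch per TP. Per the methods of the study, the authors trimmed reads with fastp, aligned them with Bowtie2 to GRCm38, marked duplicates with Picard 1.140 and called broad peaks per library with MACS2 2.1.4. The deposited peak lists give a score, a fold enrichment over the local background and −log10 p-values and q-values, the lowest −log10 q being 1. The authors merged library peaks over groups with multovl, and the deposited score in column 5 of the merged list is the number of groups. The deposited counts per merged peak, made by the authors with featureCounts, were used without normalization, and the deposited normalized table holds the same values and was not used.

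Members and gene lists were chosen with earlier results of these data known. Counts were fitted within each TP in edgeR 4.0.16 (R 4.3.3) with filterByExpr, TMM and the quasi-likelihood test, with RF and replicate number as terms, and Benjamini-Hochberg adjustment ran over all peaks (144458 at TP1 and 144449 at TP2). A call needed an adjusted p under 0.01 and a log2 fold change of 0.5 or more in either direction. Adjusted p-values rest on the spread of 5 libraries per group. The alternatives were DESeq2 1.42.0 and its size factors, no filter, no replicate block, leaving out replicates or the libraries that stood apart, summed libraries, a regional offset, other rules for holding a peak and the adjusted p alone.

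Pairs of libraries of a group were tested for excess over sampling noise by chi-square over peaks with a mean count of 500 to 5000, allowing for 2 reads per fragment. Genes, promoters and gene ends came from RefSeq, where a promoter was given for 17492 of 21900 coding genes. Each peak is named by its nearest coding gene. For each group the peak with the highest level, the one with the largest own log2 fold change, the most changed called higher and lower at the other TP, and up to 3 per gene list were named. Peaks over gene starts and those called in all 5 libraries of 1 group alone were added after their values were seen. The replicate number stands in for the processing batch of the study's own model, though no source used here states that they are the same. CPM is the raw count scaled to the total in peaks. The pipeline was tested on simulated data. Results for some genes are not reported here.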

Additional observations from a re-analysis of the deposited data

Results flagged for a closer look

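Of 118 groups of 5 libraries checked, 3 held a library far below the others of its group, where chance gives about 1 in 20. They were RF4 replicate 4 in the Osbpl10 peak at TP2 (0.35 CPM), RF4 replicate 2 in the Xylt1 peak at TP2 (0.354 CPM) and RF5 replicate 2 in the Ifi30 peak at TP2 (6.04 CPM).

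Of 107 named peaks checked, 21 had all 5 libraries of their RF on one side of the mean of the other RFs at the TP that chose them and all 5 on the opposite side at the other TP. The difference between the time points was not tested. Both sides are partly fixed by how the peaks were chosen, since the first follows from the group that held them and several were named for a call at the other TP, so the count is read against all peaks given to a group, of which 1339 of 19899 (6.73%) had this form and 522 had all 5 libraries on the same side at both time points. The log2 fold changes at the other TP are given. Among TP1 peaks of RF3 they were -0.813 for Zfp36l1, -0.668 and -0.308 for the 447 bp and 295 bp peaks of Apc2, -0.681 for Nrxn2, -1.25 for Zfp395 and -0.465 for Prelp. Among TP2 peaks of RF3 they were -1.12 for Cdh11, -0.775 for Cadm2, -0.629 for Dcc, -0.58 for Robo1, -0.575 for Frem3, -0.144 for Bdnf and -0.123 for Rims1. Among TP1 peaks of RF5 they were -1.453 for LOC665918, -1.383 for Gm20812, -0.695 for Rspo1, -0.307 for 2900026A02Rik and -0.083 for Limd2. The TP2 peak of RF5 in Tcf4 had -0.179. In RF1 the TP1 peaks near Ankrd7 and Osbpl5 had -1.547 and 0.289.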

How the results depend on the processing

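The number of peaks given to 1 group, 19899, was 865 with library peaks of −log10 q of at least 3, 7464 where library peaks had to cover 50% of the merged peak, 5410 with at least 2 and 6395 with at least 4 of 5 libraries, and 11952 to 13654 without a replicate. With a group taken from bases shared by 3 libraries, chosen after seeing the data, it was 23590. For TP2 peaks tested at TP1 (109 higher, 292 lower) the counts were 40 and 82 with 50% cover, 253 and 453 with the adjusted p alone and 183 and 137 under the regional offset. For TP1 peaks tested at TP2 (40 higher, 85 lower) they were 24 and 41 with 50% cover, 128 and 401 without the libraries that stood apart, 17 and 16 with libraries summed, 21 and 8 under the regional offset, and 4 to 87 and 16 to 245 without a replicate. The count dependent on RF at TP2 (2451) was 5343 without the libraries that stood apart, 723 with libraries summed, 486 under the regional offset and 703 to 3398 without a replicate. The cause of these changes was not tested. Without the replicate block the counts dependent on RF were 8087 at TP1 and 2474 at TP2, and those at the other TP 107 and 274, and 42 and 81. Same-numbered libraries correlated with a median of 0.044 at TP1 and 0.001 at TP2, and 9 and 5 of 25 correlated best with their own number, so the number is not shown to pair the samples. Of 2451 fold changes of named peaks under these settings, 2228 kept their call status, 198 lost the call and 25 gained it. For this count a call rested on the adjusted p alone. Of the values called in the main run, 0 turned direction. Turns of direction among uncalled values were not counted.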
